A study of Mus musculus with 16 samples.

Results

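In all, 10 genes grouped under the name formative and epiblast genes were described in total read counts. They were chosen by name as the 10 symbols Otx2, Fgf5, Pou3f1, Lef1, Sox3, Nodal, Lefty1, Lefty2, Tdgf1 and Cer1 out of 55421 genes counted. All 10 passed the filter on low counts that left 18150 genes for testing. The libraries came from female mouse embryonic stem cells (ESCs) of the F1 2-1 hybrid line, which carries 1 set of chromosomes from 129/Sv and 1 from Cast/Ei and has a doxycycline-responsive promoter at the endogenous Xist gene of the Cast X chromosome. Wild-type (Wt) cells were compared with Spen-/- cells, in which CRISPR/Cas9 had removed the open reading frame of Spen and left a puromycin resistance cassette, and the labels do not tell whether the Spen-/- replicates came from 1 clone. Each genotype was sampled as undifferentiated ESCs at day 0 without doxycycline (dox) and after 4 days of dox at 2 µg/mL. Further samples were taken at day 3 of monolayer differentiation without dox, and at day 7 with dox at 2 µg/mL. The day 7 cells also had 4 days of dox before day 0. There were 2 biological replicates per condition and 16 libraries in all. ESCs had been grown with serum and LIF on irradiated male fibroblast feeders. Dox-treated cells were sorted for dsRed, so dox and sorting cannot be told apart, and day 7 differs from day 3 in dox and sorting as well as in time.

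The formative state lies between the naive pluripotency of the inner cell mass and the epiblast that is primed for gastrulation. Otx2 and Pou3f1 (Oct6) encode transcription factors of that transition, Fgf5 encodes a fibroblast growth factor that is the classic marker of the postimplantation epiblast, and Sox3 encodes an X-linked SoxB1 factor. Nodal is a TGF-beta family ligand that signals through activin receptors to SMAD2 and SMAD3, which act with FOXH1. Tdgf1 (Cripto) encodes its co-receptor, Lefty1 and Lefty2 encode secreted inhibitors that are themselves targets of the pathway, and Cer1 encodes a secreted antagonist of Nodal, BMP and Wnt ligands. Lef1 encodes a nuclear partner of beta-catenin in Wnt signalling.

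Spen itself, as the deleted gene, ranged from 16.2 to 43.5 CPM (reads per 1000000 reads on genes, scaled by the trimmed mean of M-values, TMM) in the 8 Wt libraries and from 0.129 to 5.45 CPM in the 8 Spen-/- libraries, without overlap. Between 7571566 and 14822867 reads per library fell on genes. The correlation of log2 CPM between replicates was 0.827 for Spen-/- day 7 and 0.893 to 0.971 for the others, and the Spen-/- day 7 libraries had the fewest genes detected, 14969 and 15324 against 16952 to 23458. The ESC markers Pou5f1, Sox2, Nanog, Zfp42, Dppa4 and Tdh were detected in every condition, with a summed level of 1530 to 2270 CPM at day 0. They summed to 152 to 156 CPM in Wt and 738 to 803 CPM in Spen-/- cells at day 7. Between genotypes at day 7, 5 of these 6 were higher in Spen-/- cells and Pou5f1 was lower, each at an adjusted p under 0.05. Past that threshold were 7.11% of all genes (edgeR quasi-likelihood test with Benjamini-Hochberg adjustment). Pou5f1 was 29.7 and 19.8 CPM in Spen-/- and 52.95 and 48.1 CPM in Wt cells. The sum of 7 fibroblast markers was 12.8 to 140.0 CPM over the conditions and overlapped between genotypes at day 3 and at day 7. In these bulk libraries, fewer cells expressing a gene and less RNA of it per cell cannot be told apart.

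The genes lie on 8 chromosomes. On GRCm38 (GENCODE M21), Otx2 is at chr14:48657677-48673819 on the minus strand, Fgf5 at chr5:98254184-98277030 on the plus strand, Pou3f1 at chr4:124656807-124660655 on the plus strand, and Lef1 at chr3:131110471-131224356 on the plus strand. Sox3 is at chrX:60891366-60893430 on the minus strand and Nodal at chr10:61417972-61425338 on the plus strand. Lefty1 at chr1:180935022-180938400 and Lefty2 at chr1:180893108-180899103 are neighbours on the plus strand. Tdgf1 is at chr9:110939603-110946158 and Cer1 at chr4:82881751-82885148, both on the minus strand. Pou3f1 and Sox3 have a single exon.

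Promoter sequences, 250 bases before to 50 bases after the start of transcription, were held in the RefSeq table (GRCm38.p6) for 6 of the 10 genes: Otx2, Fgf5, Lef1, Nodal, Tdgf1 and Cer1. Those of Fgf5 and Nodal are shown because these genes moved together in the results. That of Tdgf1 is shown because it held matches to the loose pattern searched for FOXH1. They are written 5′ to 3′ on the strand of the gene, and a single capital marks the first transcribed base. In Tdgf1 the longer capitals mark matches to that FOXH1 search pattern. They cover chr5:98253934-98254233 (plus strand), chr10:61417722-61418021 (plus strand) and chr9:110946109-110946408 (minus strand).
Fgf5: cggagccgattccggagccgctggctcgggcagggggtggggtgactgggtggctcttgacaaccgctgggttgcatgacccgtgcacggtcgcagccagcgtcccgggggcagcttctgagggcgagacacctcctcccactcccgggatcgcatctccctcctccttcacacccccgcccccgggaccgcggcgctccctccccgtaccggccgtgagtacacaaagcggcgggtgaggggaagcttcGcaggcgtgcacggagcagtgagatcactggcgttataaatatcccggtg
Nodal: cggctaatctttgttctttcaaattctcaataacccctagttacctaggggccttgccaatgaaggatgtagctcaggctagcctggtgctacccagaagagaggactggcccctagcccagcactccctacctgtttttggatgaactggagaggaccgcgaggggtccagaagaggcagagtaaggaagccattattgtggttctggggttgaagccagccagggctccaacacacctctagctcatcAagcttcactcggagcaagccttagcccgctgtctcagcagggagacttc
Tdgf1: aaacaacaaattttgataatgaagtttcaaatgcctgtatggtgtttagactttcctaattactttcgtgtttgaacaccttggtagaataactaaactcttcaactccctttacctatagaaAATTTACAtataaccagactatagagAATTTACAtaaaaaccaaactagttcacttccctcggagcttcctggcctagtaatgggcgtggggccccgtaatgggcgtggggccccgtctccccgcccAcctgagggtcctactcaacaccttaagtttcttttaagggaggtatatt
On both strands, 4 motifs were searched: FOXH1 as TGTNNATT, TCF/LEF as CTTTGA, OTX as TAATCC and the POU octamer as ATGCAAAT. Tdgf1 held 2 FOXH1 matches, both on the reverse strand, whose first bases lie 127 and 101 bases before the start, and Otx2 held 1 at 105 bases before its RefSeq start, which is 6175 bases from the GENCODE gene start. No other match was found in the 6 promoters, and no match overlapped another. Of all 32851 promoters in the table, 12.2% held the FOXH1 letters, 16% those of TCF/LEF, 7.06% those of OTX and 1.74% the octamer. The 3 promoters differed in base composition: Fgf5 had 68.3% G and C and 29 CpG sites, Nodal 54.0% and 5, and Tdgf1 41.7% and 7, beside medians of 52.7% and 7 over all promoters. In the FOXH1 pattern N stands for any base, so a match to it does not show a FOXH1 site. These matches describe letters in the window and no binding was measured.

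Lefty1 and Lefty2 are near copies, which bears on how their reads were counted. Their coding sequences, both 1104 bases, are identical at 1014 aligned bases (91.8%). Of all 50-base windows in the transcripts of Lefty1, 17.9% also occur in Lefty2, and 12% of those of Lefty2 occur in another gene, chiefly Lefty1. For Tdgf1 8.86% of windows occur in the pseudogene Tdgf1-ps1, which had 86 to 641 reads per library. Reads that align to more than 1 place were not counted, so such windows are missing from the counts of these genes. Lef1 shares 1208 exonic bases with the antisense gene Gm43352 and Pou3f1 330 with Gm2164 on the opposite strand, and whether counting used strand is not given in the sources used here.

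Per kilobase of exon, which allows genes to be compared, the median level over the 16 libraries was highest for Tdgf1 at 369.8 CPM per kilobase, followed by Lefty2 at 215 and Lefty1 at 80.7. Fgf5 and Nodal stood at 33.5 and 33.3, Otx2 at 26.0 and Lef1 at 9.00, and Pou3f1, Cer1 and Sox3 were low at 2.8, 1.41 and 0.519. The co-receptor and the inhibitors of Nodal were thus more abundant than the ligand. Sox3 had 220 reads and Cer1 1921 reads over all libraries, and statements on these genes rest on few reads.

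**Figure D1:**
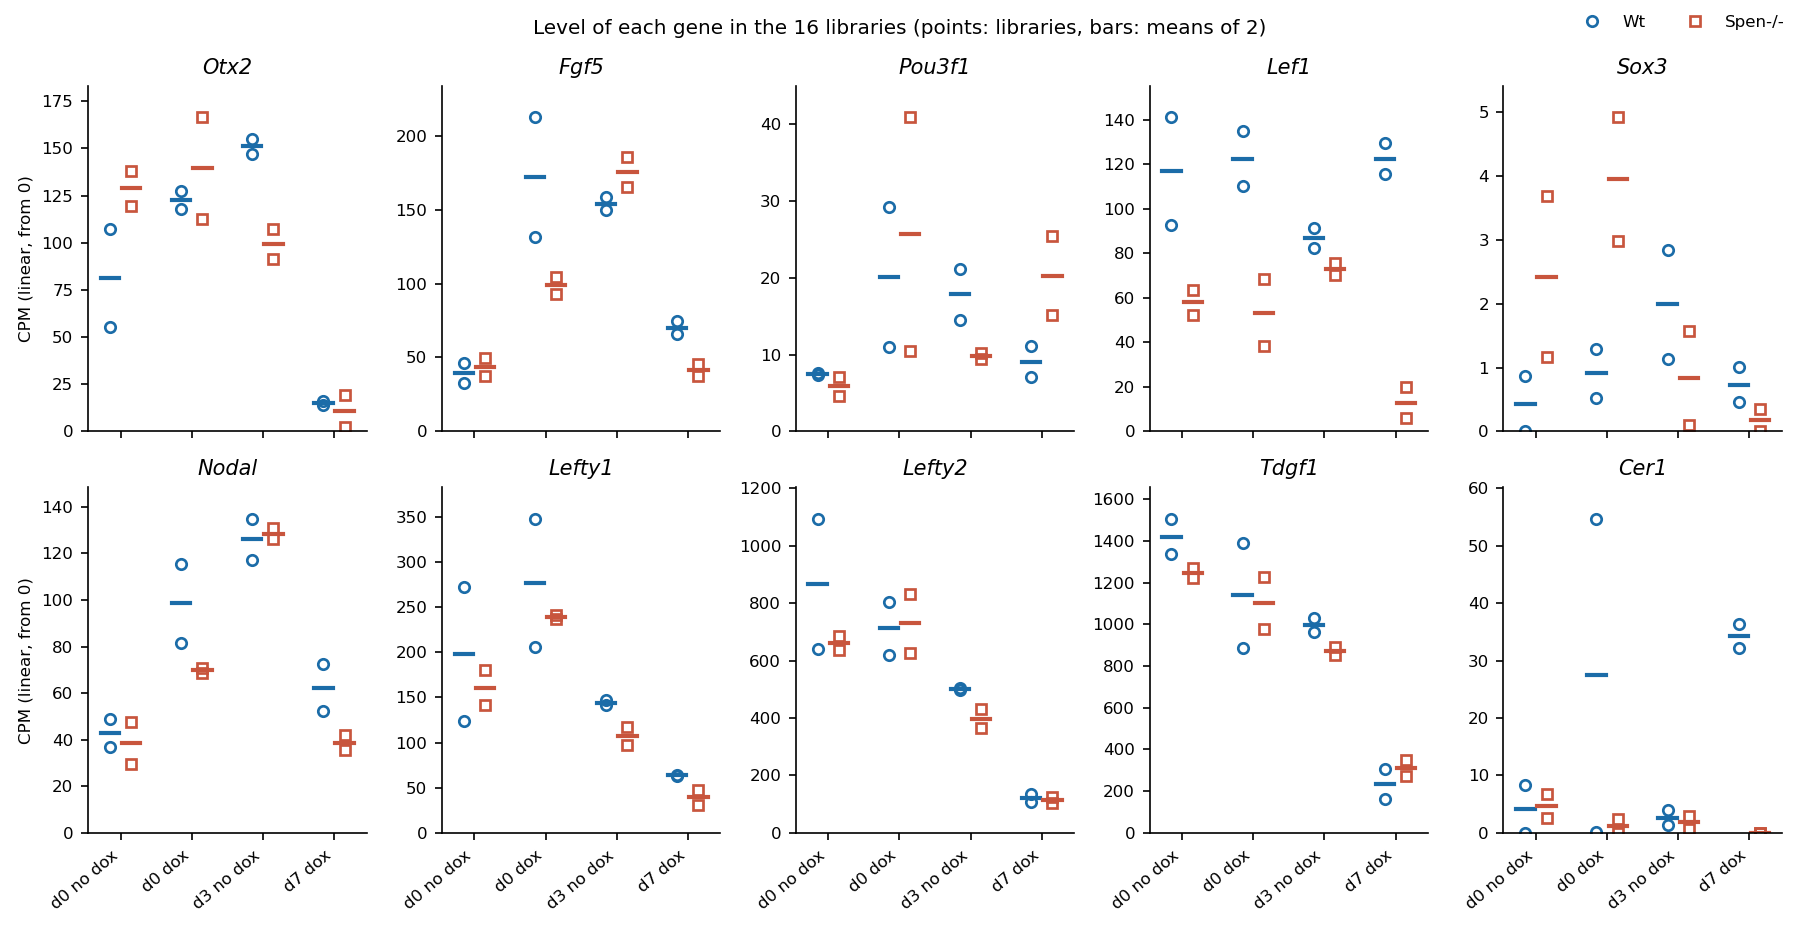
Level of each of the 10 genes in CPM on a linear axis from 0, for Wt (circles) and Spen-/- (squares) libraries at the 4 combinations of day and dox; points are libraries and bars are means of 2. Fgf5 and Nodal stand high at day 3, Lefty1, Lefty2 and Tdgf1 are lowest at day 7 in both genotypes, and Lef1 is lower in every Spen-/- library than in any Wt library.

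The comparison of day 3 with day 0 without dox asks how these genes moved as ESCs left self-renewal. Fgf5 and Nodal rose in both genotypes, and they were the only members past the threshold at this time. In Wt cells Fgf5 was 46.0 and 33.1 CPM at day 0 and 158 and 149 CPM at day 3. The increase was 1.96 ± 0.28 (log2 fold change ± SE, 3.89-fold, adjusted p = 0.00506, edgeR quasi-likelihood test with Benjamini-Hochberg adjustment). Day 3 libraries lay above both day 0 libraries. Fgf5 in Spen-/- cells went from 37.8 and 49.5 CPM to 186 and 165.5 CPM, a change of 2.01 ± 0.28 (4.02-fold, adjusted p = 0.00481). The sizes in the 2 genotypes differed by 0.05 ± 0.38 on the log2 scale.

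Nodal, the ligand, was 49.1 and 37.0 CPM in Wt cells at day 0 and 135 and 117 CPM at day 3, an increase of 1.55 ± 0.30 (2.92-fold, adjusted p = 0.0312). Spen-/- cells had 29.4 and 47.7 CPM of Nodal at day 0 and 131 and 126 CPM at day 3 (1.74 ± 0.31, 3.33-fold, adjusted p = 0.0180). Again no day 3 library reached down to the day 0 range, and the difference between genotypes was 0.19 ± 0.42. So 2 of 10 members were called in either genotype, against 1.38% of all genes tested in Wt and 1.23% in Spen-/- cells. Those shares moved when 1 library was left out, which leaves 1 library in a group and filters the genes anew. The median log2 change over the 10 genes was 0.23 in Wt and -0.45 in Spen-/- cells, beside 0.012 and 0 over all genes. In Wt cells the calls of Fgf5 and Nodal were lost without day 0 replicate 2 or either day 3 replicate. In Spen-/- cells both were lost without day 3 replicate 1, and Nodal also without day 0 replicate 1 or day 3 replicate 2. With 1 library left out, the log2 changes in Wt cells ran from 1.73 to 2.23 for Fgf5 and from 1.35 to 1.78 for Nodal. In Spen-/- cells they ran from 1.83 to 2.22 and from 1.43 to 2.13.

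The inhibitors and the co-receptor of Nodal did not share this rise. Lefty2 was 1094 and 640.1 CPM in Wt cells at day 0 and 504 and 496 CPM at day 3 (-0.79 ± 0.26, adjusted p = 0.174), and 686 and 637 CPM against 365 and 432 CPM in Spen-/- cells (-0.73 ± 0.26, adjusted p = 0.230). Tdgf1 changed by -0.51 ± 0.28 in each genotype (adjusted p = 0.462 and 0.452). For both genes the day 3 libraries lay below the day 0 libraries in both genotypes, but neither passed the threshold. Lefty1 gave -0.46 ± 0.35 in Wt cells, where the ranges overlapped, and -0.59 ± 0.35 in Spen-/- cells, where they did not. The Wt value turned to 0.23 without day 0 replicate 1.

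Otx2, a driver of the exit from naive pluripotency, Lef1 and the sparsely read Sox3 had values of opposite sign in the genotypes, none past the threshold. Sox3 gave 2.12 ± 1.73 in Wt and -1.52 ± 1.70 in Spen-/- cells. In Wt cells Otx2 was 55.4 and 107 CPM at day 0 and 147 and 155 CPM at day 3 (0.89 ± 0.63, adjusted p = 0.569). Its level in Spen-/- cells was 138 and 119.6 CPM at day 0 and 91.4 and 107 CPM at day 3 (-0.38 ± 0.63, adjusted p = 0.867). The difference between these changes was -1.27 ± 0.89 (adjusted p = 1), within the error. Lef1 had a negative value in Wt (-0.43 ± 0.44) and a positive one in Spen-/- cells (0.33 ± 0.44), and their difference of 0.76 ± 0.62 did not pass either. Pou3f1 gave 1.25 ± 0.70 and 0.74 ± 0.70. No member passed the test for a difference between genotypes in its change to day 3. No gene of the 18150 tested passed either (0% called by edgeR's quasi-likelihood test with 622 genes at an unadjusted p under 0.05, and 7 genes by DESeq2).

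**Figure D2:**
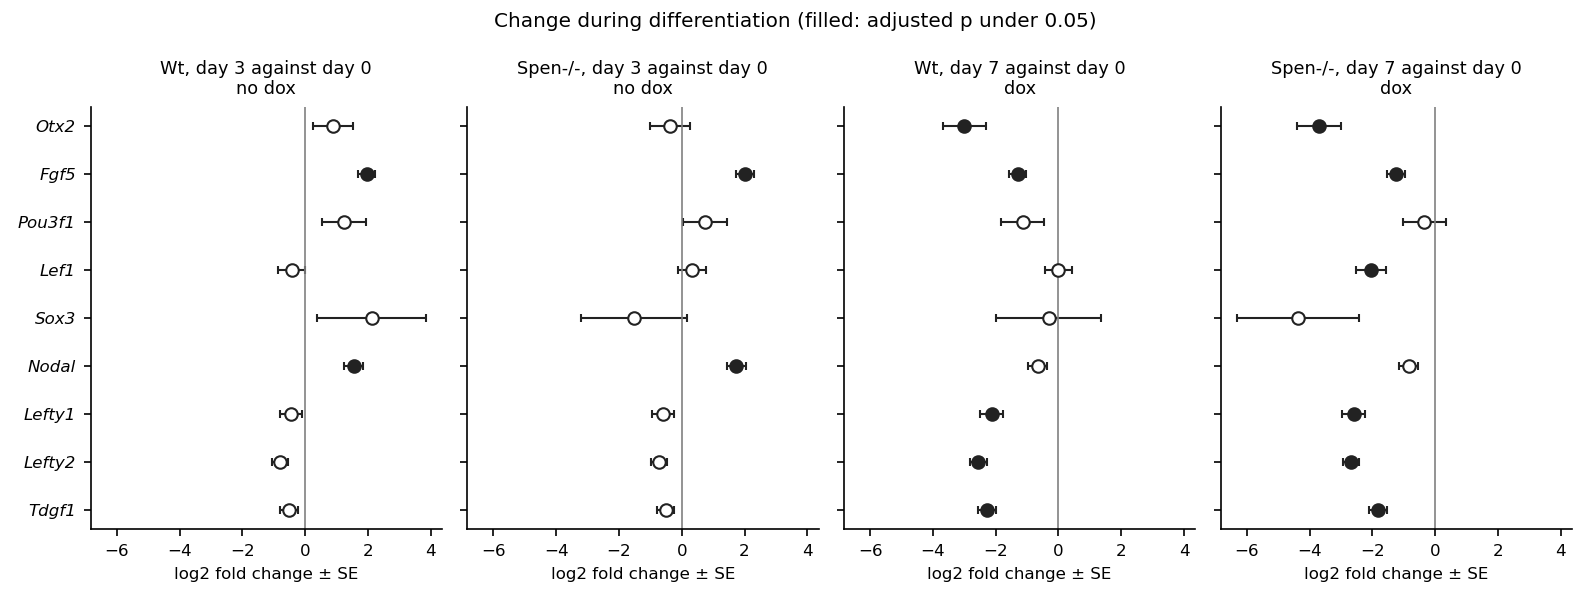
Log2 fold change with its standard error (horizontal axis) of 9 members in the 4 comparisons of differentiation, filled where the adjusted p of edgeR's test was under 0.05; Cer1 is left out because libraries without reads set its fitted value. At day 3 only Fgf5 and Nodal are filled, to the right of 0, and at day 7 Otx2, Fgf5, Lefty1, Lefty2 and Tdgf1 are filled to the left in both genotypes, with Lef1 in Spen-/- cells alone.

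By day 7, compared with dox-treated cells at day 0, the picture was one of loss. In Wt cells 5 of 10 members fell (Otx2, Fgf5, Lefty1, Lefty2 and Tdgf1) and none rose, against 4.57% of all genes called. The same 5 genes and Lef1 fell in Spen-/- cells, against 8.33% of all genes called. The 829 genes behind the Wt share became 356 and 505 without day 0 replicates 1 and 2 and 270 and 282 without day 7 replicates 1 and 2, and the 1512 in Spen-/- cells became 777 without day 0 replicate 1. The median log2 change of the members was -1.22 in Wt cells, beside -0.0023 over all genes. For Spen-/- cells the median was -2.32 beside -0.048, or -1.93 with Cer1, which had no reads at day 7, set at its bound of 3 reads per library.

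Lefty2 had the smallest adjusted p of the members. It was 804 and 621 CPM at day 0 and 109.0 and 134 CPM at day 7 in Wt cells, 5.86-fold lower (-2.55 ± 0.27, adjusted p = 0.000249). Lefty2 in Spen-/- cells was 628 and 833 CPM at day 0 and 103 and 125 CPM at day 7, 6.42-fold lower (-2.68 ± 0.27, adjusted p = 0.000263). The day 7 libraries of both genotypes lay within one range. Its relative Lefty1 was 348 and 206 CPM at day 0 and 63.4 and 64.1 CPM at day 7 in Wt cells (-2.12 ± 0.37, adjusted p = 0.00607), and 241 and 237 CPM against 47.7 and 31.2 CPM in Spen-/- cells (-2.60 ± 0.37, adjusted p = 0.00214). At day 7 both Spen-/- libraries were below both Wt libraries in Lefty1, a genotype difference of -0.69 ± 0.36 that did not pass (adjusted p = 0.263).

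Tdgf1, the co-receptor and most abundant member per kilobase, was 888 and 1391 CPM at day 0 and 162 and 306 CPM at day 7 in Wt cells, 4.87-fold lower (-2.28 ± 0.29, adjusted p = 0.000896). Tdgf1 in Spen-/- cells was 978 and 1227 CPM at day 0 and 275 and 348 CPM at day 7, 3.54-fold lower (-1.82 ± 0.29, adjusted p = 0.00325). Nodal itself did not pass in either genotype. It was 115 and 81.6 CPM at day 0 and 52.1 and 72.7 CPM at day 7 in Wt cells (-0.66 ± 0.30, adjusted p = 0.287), and 68.5 and 71.0 CPM against 35.6 and 41.9 CPM in Spen-/- cells (-0.85 ± 0.30, adjusted p = 0.109), with ranges apart in both.

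Otx2 was 127 and 118 CPM in Wt cells at day 0 and 14.2 and 16.3 CPM at day 7, 8.02-fold lower (-3.00 ± 0.68, adjusted p = 0.0272). Spen-/- cells had 166 and 112 CPM of Otx2 at day 0 and 19.5 and 2.09 CPM at day 7 (-3.69 ± 0.71, 12.9-fold lower, adjusted p = 0.00850). The 2 Spen-/- libraries at day 7 lay on either side of the Wt range. Fgf5 was 212 and 132 CPM in Wt cells at day 0 and 65.9 and 74.5 CPM at day 7 (-1.29 ± 0.27, adjusted p = 0.0196), and 105 and 93.2 CPM against 45.9 and 37.2 CPM in Spen-/- cells (-1.25 ± 0.28, adjusted p = 0.0173). Its day 0 reference was itself raised with dox in Wt cells, as described next, and at 65.9 to 74.5 CPM the Wt day 7 libraries stood above the 33.1 to 46.0 CPM of untreated ESCs.

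The calls of Lefty2 and Tdgf1 held in both genotypes, and those of Otx2 and Lefty1 in Spen-/- cells, when any 1 library of the comparison was left out. In Wt cells that of Otx2 was lost without any 1 of the 4 libraries (adjusted p = 0.107 and 0.0677 without day 0 replicates 1 and 2, 0.215 and 0.193 without day 7 replicates 1 and 2), and those of Fgf5 and Lefty1 without day 0 replicate 1 (0.220 and 0.0600), day 7 replicate 1 (0.208 and 0.0833) or day 7 replicate 2 (0.137 and 0.0726). In Spen-/- cells that of Fgf5 was lost without day 0 replicate 1 (0.0889) or day 7 replicate 2 (0.0831), and that of Lef1 without day 0 replicate 2 (0.104). With 1 library left out, the Wt values ran from -3.11 to -2.92 for Otx2, -1.65 to -0.90 for Fgf5 and -2.50 to -1.69 for Lefty1. Without Spen-/- day 7 replicate 1 the value of Otx2 was -6.07, and without replicate 2 that of Lef1 was -3.14.

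At day 0, dox-treated and sorted cells were compared with untreated and unsorted cells. Fgf5 rose in Wt cells from 46.0 and 33.1 CPM to 212 and 132 CPM (2.12 ± 0.28, 4.35-fold, adjusted p = 0.0148), the 1 member called, against 0.149% of all genes. In Spen-/- cells it was 37.8 and 49.5 CPM without and 105 and 93.2 CPM with dox (1.18 ± 0.28, 2.27-fold, adjusted p = 0.222), where 0.0716% of all genes and no member were called. Both dox libraries lay above both others in each genotype. The difference between the genotypes was -0.94 ± 0.38 (unadjusted p = 0.0312, adjusted p = 0.831); it was tested after the values had been seen, and 0% of all genes passed that test (1058 genes at an unadjusted p under 0.05, and 105 by DESeq2). The Wt call was lost without untreated replicate 2 (adjusted p = 0.1496) or dox replicate 1 (0.177). Over all genes, the 27 called in Wt cells became 187 and 6 without untreated replicates 1 and 2 and 3 and 12 without dox replicates 1 and 2, and the 13 in Spen-/- cells became 40 and 3 without untreated replicates 1 and 2 and 6 and 8 without dox replicates 1 and 2.

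Nodal had the same order without passing: 49.1 and 37.0 CPM without and 115 and 81.6 CPM with dox in Wt cells (1.19 ± 0.30, adjusted p = 0.238), and 29.4 and 47.7 CPM against 68.5 and 71.0 CPM in Spen-/- cells (0.86 ± 0.30, adjusted p = 0.472). Pou3f1 was above both untreated libraries in both dox libraries of each genotype, but its dox replicates were 11.02 and 29.3 CPM in Wt and 40.9 and 10.5 CPM in Spen-/- cells. The median log2 difference over the members was 0.80 in Wt cells and 0.36 in Spen-/- cells, beside 0.0083 and 0 over all genes. The summed level of 12 naive pluripotency genes lay lower with dox in both genotypes, at 1460 to 1580 against 3300 to 3740 CPM in Wt and 1980 to 2000 against 3200 to 3410 CPM in Spen-/- cells, and that of the fibroblast markers was 12.8 to 51.4 against 45.9 to 140.0 CPM in Wt and 16.6 to 24.2 against 123 to 127 CPM in Spen-/- cells. The part of these in the result was not tested.

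Between genotypes, Lef1 stood out among the members. It was lower in Spen-/- cells at day 7 and over the 4 days and treatments together. At day 0 without dox it was 141 and 92.7 CPM in Wt and 63.5 and 52.3 CPM in Spen-/- cells (-1.01 ± 0.44, adjusted p = 0.984), and with dox 110.0 and 135 CPM against 38.3 and 68.3 CPM (-1.20 ± 0.45, adjusted p = 0.397). At day 3 the levels came close, 91.1 and 82.4 CPM against 70.2 and 75.8 CPM (-0.25 ± 0.44, adjusted p = 1). In none of these 3 conditions did the ranges overlap, yet none passed. Ranges apart between groups of 2 libraries are description only, as the share of all genes with ranges apart is not given. At day 7 Lef1 was 115.5 and 129 CPM in Wt and 6.04 and 19.8 CPM in Spen-/- cells, 9.46-fold lower (-3.24 ± 0.48, adjusted p = 0.00203, edgeR's quasi-likelihood test), against 7.11% of all genes called. Averaged over the 4 conditions the difference was -1.43 ± 0.23 (2.69-fold, adjusted p = 0.00498), against 4.91% of all genes called, and all 8 Spen-/- libraries, at up to 75.8 CPM, lay below all 8 Wt libraries, at 82.4 CPM or more. The 1291 genes called at day 7 became 541 and 644 without Wt day 7 replicates 1 and 2, and the 891 on average ranged from 331 (without Spen-/- day 3 replicate 1) to 1570 (without Spen-/- day 7 replicate 1).

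Within Wt cells the Lef1 levels at day 0 and day 7 overlapped (log2 difference 0.00075 ± 0.44 with dox at both days, adjusted p = 1), while in Spen-/- cells it fell 4.12-fold (-2.04 ± 0.46, adjusted p = 0.0198). The difference between these changes, -2.04 ± 0.63, did not pass (adjusted p = 0.153), against 2.01% of all genes called, and no member passed that test. It passed without Spen-/- day 7 replicate 2 (-3.11, adjusted p = 0.00784), with no filter on low counts (-2.07, adjusted p = 0.00921) and with DESeq2 (-2.01, adjusted p = 0.0270). The 364 genes that passed among all tested ranged from 143 (without Wt day 0 dox replicate 2) to 766 (without Spen-/- day 7 replicate 2). The genotype calls of Lef1 at day 7 and on average held when any 1 library was left out, at -4.33 to -2.65 and -1.71 to -1.29. In a fit of the 4 day 7 libraries alone, which has fewer samples, the day 7 call was lost (-3.29, adjusted p = 0.0677). The antisense gene Gm43352, which overlaps Lef1, had 1 to 72 reads per library.

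**Figure D3:**
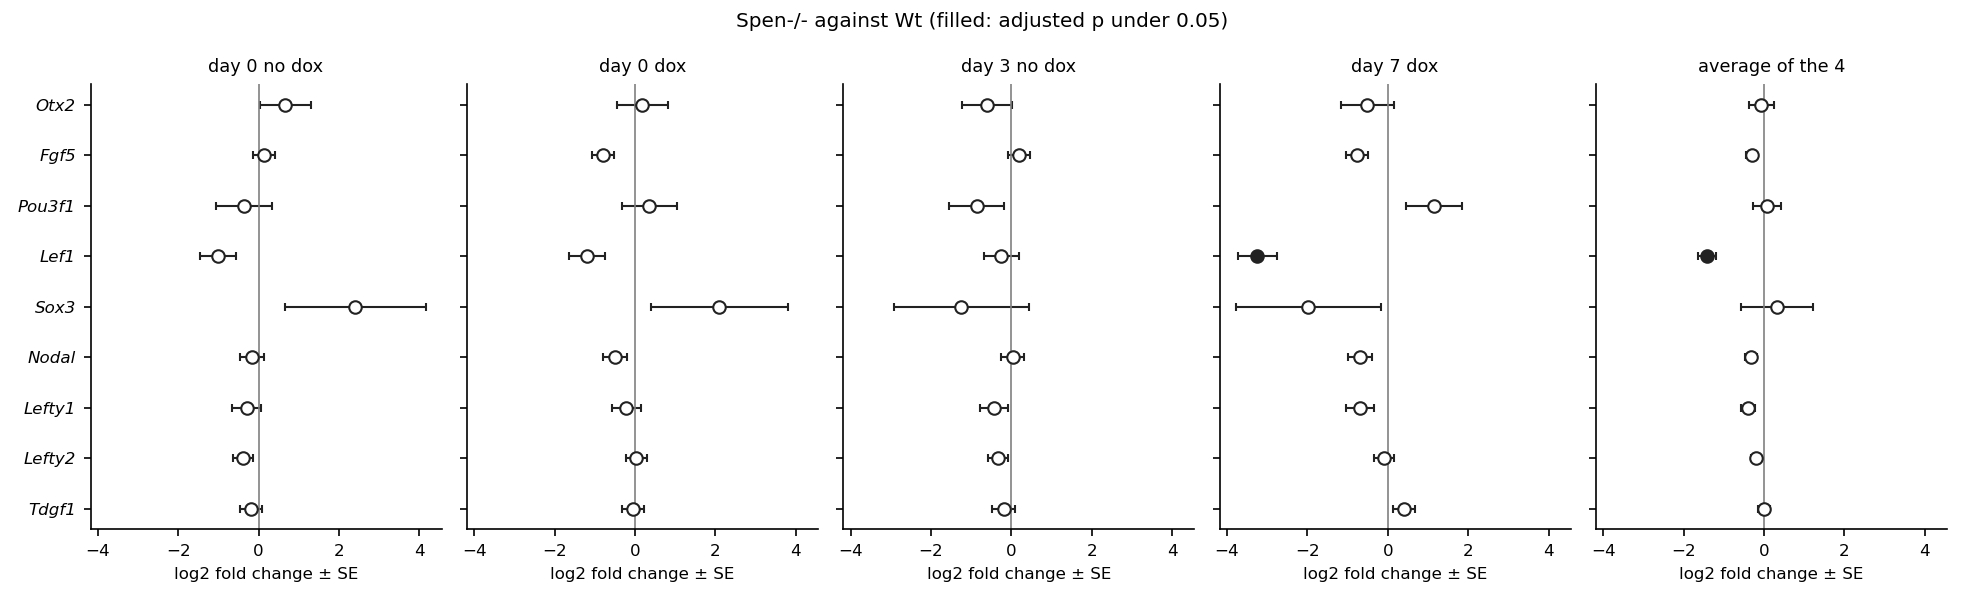
Log2 fold change of Spen-/- against Wt with its standard error (horizontal axis) for 9 members in each of the 4 conditions and on average, filled where the adjusted p of edgeR's test was under 0.05; Cer1 is left out because libraries without reads set its fitted value. Lef1 lies to the left of 0 in all panels and is filled at day 7 (-3.24) and on average (-1.43), and no other member is filled.

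No other member was called between genotypes in any condition. The shares of all genes called were 0% at day 0 without dox (828 genes at an unadjusted p under 0.05, and 59 by DESeq2), 0.0826% at day 0 with dox (15 genes, which became 2 and 4 without Wt replicates 1 and 2) and 0% at day 3 (585 genes at an unadjusted p under 0.05, and 15 by DESeq2), so in those conditions few or no genes of any kind passed edgeR's test. Even the deleted gene Spen did not pass in them, at -3.32 ± 0.89, -3.65 ± 0.91 and -4.27 ± 0.94 in that order. A gene that did not pass there may still differ. At day 7 Fgf5 (-0.76 ± 0.27, adjusted p = 0.122) and Nodal (-0.69 ± 0.30, adjusted p = 0.193) were lower in Spen-/- cells without overlap and without passing. The same held for Lefty1, Sox3 and Cer1, while Pou3f1 was higher without overlap and without passing. With 2 libraries per group, such gaps are description only. Lefty2 (-0.09 ± 0.26), Tdgf1 (0.41 ± 0.28) and Otx2 (-0.50 ± 0.66) overlapped between the genotypes. Tdgf1 at day 7 came to -0.02 without Wt replicate 1. Over the members the median genotype difference at day 7 was -0.69, beside -0.14 over all genes, and 8 of 10 values were below 0.

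Cer1, the antagonist, was the most uneven member. In Wt cells it was 8.34 and 0 CPM at day 0, 54.7 and 0.21 CPM at day 0 with dox, 1.33 and 3.93 CPM at day 3, and 32.2 and 36.4 CPM at day 7. In Spen-/- cells it was 2.57 and 6.81, 0 and 2.34, and 0.736 and 2.94 CPM in the same order, with no read in either library at day 7. Set against a floor of 3 reads per library (0.349 to 0.386 CPM), the day 7 level was at least 93.4-fold lower in Spen-/- cells than the Wt mean of 34.3 CPM. That difference did not pass (adjusted p = 0.0929), and a single dox library of Wt cells at day 0 held 848 reads where its replicate held 2. In the same Spen-/- day 7 libraries the primitive streak genes T and Gsc, named after their values were seen, also had no reads, against Wt means of 202 and 6.87 CPM, at least 549-fold and 18.7-fold lower. The summed level of 8 streak and mesoderm markers at day 7 was 284 to 370 CPM in Wt and 0 to 9.26 CPM in Spen-/- cells, and that of 12 endoderm markers 144 to 172 CPM and 24.9 to 44.3 CPM. Of the 10 endoderm markers tested, 3 had values above 0 and 7 below 0 between genotypes at day 7, and none passed. The part of the streak and endoderm markers in the levels of the members was not tested.

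Pou3f1 and Sox3 were low, and no test on them passed. Pou3f1 ranged from 4.67 to 40.9 CPM, with its highest library and a replicate at 10.5 CPM both among Spen-/- cells with dox at day 0. At day 7 it was 11.1 and 7.07 CPM in Wt and 25.5 and 15.1 CPM in Spen-/- cells (1.16 ± 0.69, adjusted p = 0.330). X-linked Sox3 never exceeded 4.91 CPM, or 44 reads. Both Spen-/- libraries were above both Wt libraries at day 0 without dox (1.17 and 3.68 against 0.869 and 0 CPM) and with it (2.98 and 4.91 against 1.29 and 0.525 CPM), but with adjusted p = 1 and 0.701. Between day 7 and day 0 with dox in Spen-/- cells Sox3 differed by -4.38 ± 1.95 (adjusted p = 0.193).

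Ordered by mean level, most neighbouring conditions overlapped. For Fgf5 the order ran from Spen-/- day 3 (176 CPM), Wt day 0 with dox (172) and Wt day 3 (154) through Spen-/- day 0 with dox (98.9) and Wt day 7 (70.2) to Spen-/- day 0 (43.6), Spen-/- day 7 (41.6) and Wt day 0 (39.5). Ranges were apart only between the third and the fourth, the fourth and the fifth, and the fifth and the sixth of these. For Lef1 the order was Wt in all 4 conditions (122 to 86.8 CPM), then Spen-/- day 3 (73.0), day 0 (57.9), day 0 with dox (53.3) and day 7 (12.9). For Tdgf1 and Lefty2 the 2 day 7 groups came last, below a gap, and overlapped each other.

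The libraries in which Fgf5 was high were also those in which Nodal was high. Over the 16 libraries the Pearson correlation of log2 CPM between them was 0.959, and each was the closest of 11028 genes to the other. The next closest were Kifc2 (0.907) and Tubb4a (0.885) for Fgf5, and Emb (0.892) and Wnt8a (0.891) for Nodal. For Otx2 the closest were Snrpd3 (0.932), Pou5f1 (0.930), the core pluripotency factor, and Bok (0.928). These values describe 8 conditions with 2 libraries each, which share their scaling and, within a condition, their treatment. Otx2 and Fgf5 themselves had a correlation of 0.471.

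**Figure D4:**
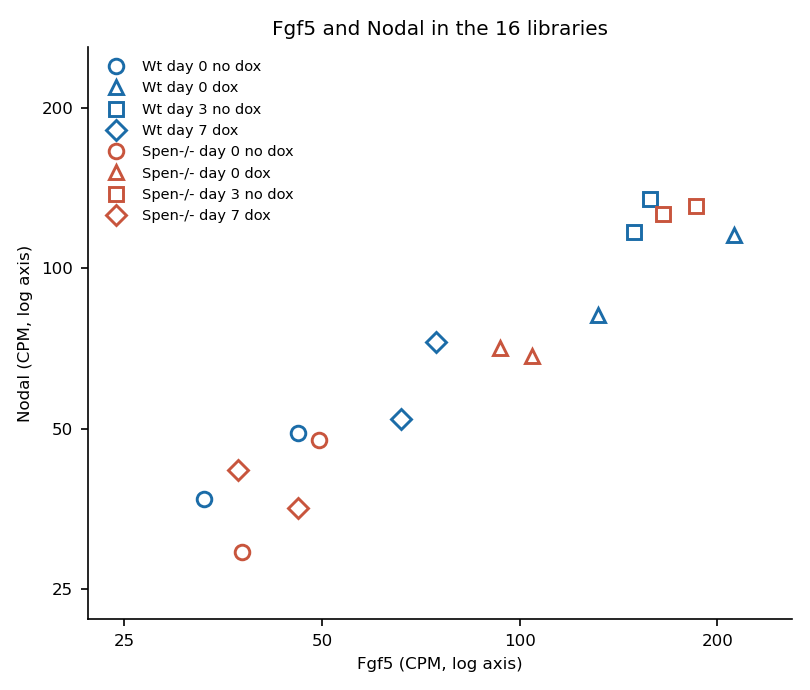
Fgf5 (horizontal) against Nodal (vertical) in the 16 libraries, in CPM on log axes, with colour for genotype and shape for day and dox. Untreated day 0 and Spen-/- day 7 libraries lie at the lower left, at up to 49.5 CPM of Fgf5, and day 3 libraries of both genotypes at the upper right, at 117 CPM of Nodal or more.

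Beside these members, the fixed list of 18 other Nodal pathway genes, 16 of them tested, held few calls. For this and the following lists, the shares of all genes called at day 3 were 1.38% in Wt and 1.23% in Spen-/- cells. At day 7 they were 4.57% and 8.33%, and 7.11% between genotypes. None of the Nodal list was called at day 3 in either genotype. At day 7 in Wt cells Gdf3, a TGF-beta family ligand, fell (-3.44 ± 0.46, adjusted p = 0.00123) and Furin, a convertase that cleaves the Nodal precursor, rose (2.56 ± 0.44, adjusted p = 0.00617), while none was called in Spen-/- cells. The Spen-/- values of Gdf3 (-1.12 ± 0.42) and Furin (1.35 ± 0.43) had the same signs as in Wt cells without passing. The list median was 0.66 in Wt and 0.35 in Spen-/- cells, beside -0.0023 and -0.048 over all genes. Between genotypes at day 7, Gdf3 was higher in Spen-/- cells (61.3 and 40.6 against 9.60 and 9.15 CPM, 2.44 ± 0.45, adjusted p = 0.00638), as was the convertase Pcsk6 (20.8 and 13.02 against 2.36 and 1.18 CPM, 3.25 ± 0.80, adjusted p = 0.0302). Foxh1, the DNA-binding partner of SMAD2, was lower (18.9 and 6.28 against 43.2 and 50.1 CPM, -1.89 ± 0.51, adjusted p = 0.0450), and it was the 1 gene of the list called on average (-0.99 ± 0.25, adjusted p = 0.0412). The list median at day 7 was 0.17, beside -0.14 over all genes.

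Of 12 other genes of FGF/ERK signalling, all tested, Fgf8 rose (5.46 ± 1.19, adjusted p = 0.0485) and Fgf4 fell (-2.76 ± 0.58, adjusted p = 0.0433) in Wt cells at day 3, with the feedback inhibitor Spry2 also lower (-3.04, adjusted p = 0.0332, named after its value was seen). In Spen-/- cells only Fgf4 was called (-2.78 ± 0.59, adjusted p = 0.0450). Fgf8 had a value of 4.17 ± 1.12 there, the same direction as in Wt cells, without passing. At day 7 in Wt cells Fgf4 (-5.66 ± 0.69), Fgf15 (-3.80 ± 0.45) and Etv5 (-2.26 ± 0.49) fell and Fgfr2 rose (2.27 ± 0.53), with adjusted p = 0.000596, 0.000526, 0.0212 and 0.0315. In Spen-/- cells only Fgf15 was called (-1.49 ± 0.41, adjusted p = 0.0452). Without passing there, Etv5 (-1.42 ± 0.48) and Fgfr2 (1.35 ± 0.52) had the same signs as in Wt cells and Fgf4 (0.64 ± 0.55) the opposite one. At day 7 the genotypes parted in both directions. Fgf4, an ESC-expressed ligand, was 157 and 436 CPM in Spen-/- and 2.86 and 3.35 CPM in Wt cells (6.57 ± 0.71, adjusted p = 0.000237), and Fgf15 was also higher (2.32 ± 0.43, adjusted p = 0.00677). Fgf8 was lower (6.04 and 0 against 121.5 and 111 CPM, -5.28 ± 1.20, adjusted p = 0.0199), as were the ERK phosphatase Dusp6 (-2.05 ± 0.38, adjusted p = 0.00677) and the inhibitor Spred1 (-2.77 ± 0.63, adjusted p = 0.0207). The list median was -1.21, beside -0.14 over all genes. On average over the 4 conditions Fgf4 was called higher and Dusp6 lower in Spen-/- cells, against 4.91% of all genes.

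Of 13 other genes of the Wnt/TCF pathway, 12 were tested. Tcf7, which like Lef1 encodes a TCF/LEF factor, was the only gene of the list called in any of the 14 comparisons. It was 58.9 and 42.0 CPM at day 0 with dox and 4.50 and 0.116 CPM at day 7 in Spen-/- cells (-4.46 ± 1.01, adjusted p = 0.0196), and 38.6 and 27.1 CPM in Wt cells at day 7 (genotype difference -3.84 ± 0.99, adjusted p = 0.0371). At day 7, 11 of the 12 genes had values below 0 between genotypes, with a median of -0.96 beside -0.14 over all genes, but Tcf7 alone passed.

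Among 11 other formative genes, Tead2 rose at day 3 in Wt cells (1.84 ± 0.33, adjusted p = 0.0207) and none was called in Spen-/- cells. The Spen-/- value of Tead2 was 0.97 ± 0.32, the same direction. At day 7 the de novo methyltransferase genes Dnmt3a and Dnmt3b fell in both genotypes, Dnmt3b by -2.75 ± 0.30 in Wt (adjusted p = 0.000324) and -1.80 ± 0.29 in Spen-/- cells (adjusted p = 0.00382), and Dnmt3a by -1.99 ± 0.26 (adjusted p = 0.00105) and -0.94 ± 0.25 (adjusted p = 0.0427). The chromatin factor gene Utf1 fell in Wt cells from 744 and 856 to 80.4 and 79.3 CPM (-3.33 ± 0.28, adjusted p = 3.3e-05). In Spen-/- cells Utf1 was still at 393 and 425 CPM at day 7 (genotype difference 2.36 ± 0.26, adjusted p = 0.000287). Tead2 was lower there (-1.32 ± 0.33, adjusted p = 0.0315). On average over the 4 conditions Dnmt3b was lower in Spen-/- cells, the 1 gene of this list called, against 4.91% of all genes. With dox at day 0, Dnmt3b rose in Wt cells beside Fgf5 (1.75 ± 0.29, adjusted p = 0.0473). The list median at day 7 was -1.33 in Wt and -0.94 in Spen-/- cells.

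The naive pluripotency genes give the other side of the transition. Of 12, 8 fell at day 3 in Wt and 9 in Spen-/- cells, with medians of -3.35 and -3.10, in the libraries where Fgf5 and Nodal rose. The shares of all genes called were 1.38% and 1.23%. At day 7 they summed to 246 to 249 CPM in Wt and 951 to 1180 CPM in Spen-/- cells. Between genotypes at day 7, 7 were higher in Spen-/- cells, namely Nanog (1.70), Esrrb (2.19), Nr0b1 (4.50), Tfcp2l1 (2.88), Tcl1 (6.30), Dppa3 (1.54) and Zfp42 (4.03, log2 fold changes), and Prdm14 was lower (-4.13). Of all genes, 7.11% were called in this comparison. Among the members 1 of 10 was lower and none higher, near that share, and Otx2, Lefty2 and Tdgf1 overlapped between the genotypes.

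Reads that carry a 129/Sv or Cast/Ei variant gave a second readout, the Cast share. It was taken in libraries with more than 20 such reads for a gene, which gave 110 values. Sox3 had at most 1 allele-specific read, and Pou3f1 and Cer1 gave 1 and 3 values. The median Cast share over libraries was 0.473 for Tdgf1, 0.544 for Lefty1, 0.587 for Lef1, 0.590 for Nodal, 0.637 for Fgf5 and 0.658 for Otx2. Lefty2 was the member with the lowest share, between 0.184 and 0.522 around a median of 0.346, and how the reads it shares with Lefty1 bear on it was not tested.

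Replicates of a condition could differ in Cast share by more than counting error. Of 53 replicate pairs with values, 15 had 95% Wilson intervals that did not overlap, 5 of them in Lefty1, 4 in Tdgf1 and 3 in Fgf5. Fgf5 in untreated Spen-/- cells at day 0 had a share of 0.303 in 1 replicate and 0.835 in the other, and Nodal in the same libraries 0.871 and 0.442, the opposite order. In untreated Wt cells at day 0 Fgf5 was at 0.581 and 0.923, and in Spen-/- cells at day 7 at 0.411 and 0.849. The untreated day 0 and the Spen-/- day 7 libraries also had low levels of both genes. At day 3 the shares of Fgf5 were 0.617 and 0.655 in Wt and 0.615 and 0.647 in Spen-/- cells. These intervals reflect the number of reads alone; PCR copies are not told apart without molecular identifiers, and libraries were made from at most 1 ng of RNA.

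**Figure D5:**
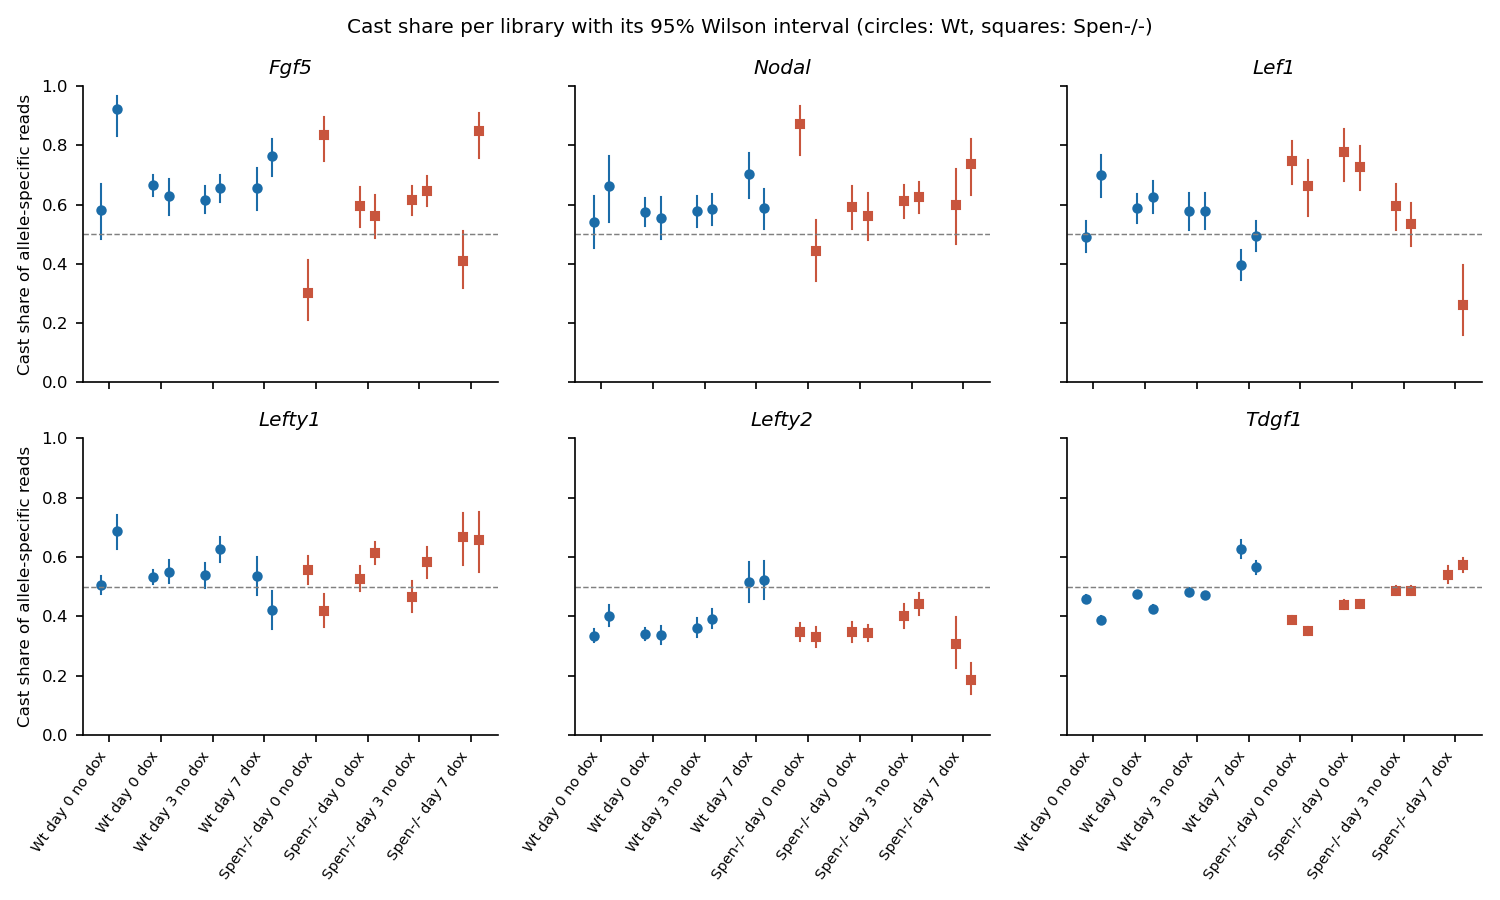
Cast share of allele-specific reads (0 to 1) of 6 members in each library with more than 20 such reads, for the 4 Wt and 4 Spen-/- conditions; points are libraries, lines their 95% Wilson intervals, and the dashed line marks equal shares. Fgf5 and Nodal spread widely between untreated day 0 replicates of Spen-/- cells and lie close together at day 3. Fgf5 also spreads between untreated Wt day 0 replicates and between Spen-/- day 7 replicates. Lefty2 lies below the dashed line except in Wt cells at day 7.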

How the data were processed

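RNA from Wt and Spen-/- ESCs was sequenced by the authors from Smart-seq2 libraries as 50 bp single-end reads, which per the labels and methods were aligned with HISAT2 2.2.1 to an mm10 genome masked at the strain variants, split by allele with SNPsplit after handling in SAMtools 1.10, and assigned to genes by HTSeq 0.12.4, where reads with more than 1 alignment were left out. The deposited files hold the authors' raw counts, not normalized, for 55421 genes in 3 columns (129/Sv, Cast/Ei and unassigned), which were summed here. The strand setting and any removal of duplicates are not given in the sources used here. Reads outside genes (31.6% to 45.4% per library) stayed out of library sizes. Gene symbols came from GENCODE M21 and matched 55154 genes, with 267 unmatched.

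Counts were filtered with filterByExpr (minimum count 10), scaled with TMM and fitted in 1 model of all 16 libraries with edgeR 4.0.16 in R 4.3.3, without a replicate block. Quasi-likelihood F-tests were adjusted after Benjamini and Hochberg over the 18150 genes tested, with a threshold of 0.05. The standard error is the log2 fold change divided by the square root of F. Scripts were tested on simulated data. P-values measure the spread between replicates labelled as biological, whose separate origin is not described. The share of all genes with ranges apart is not given here, so ranges apart between groups of 2 libraries are description only. Median depth was 9634647.5 reads on genes. Intervals of allele shares are 95% Wilson intervals and cover counting error only.

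The members and gene lists were chosen with earlier results of these data known. The text names the 10 members, Spen, the genes of each list called between genotypes within a condition or in a difference of changes, up to 4 per list with the smallest adjusted p during differentiation, and the 3 genes most correlated with Otx2, Fgf5 and Nodal among those with a mean of at least 5 CPM. The marker lists were 8 streak and mesoderm, 12 endoderm, 7 neural, 7 fibroblast and 6 ESC genes. The neural markers summed to 15.5 to 94.4 CPM. Alternatives were DESeq2 1.42.0, its size factors in edgeR, no filter, a replicate block, library sizes from autosomal genes, a fit of the compared libraries alone, a fit without the Spen-/- day 7 libraries, and each library left out. A fit with 1 library left out has 1 library in a group and was filtered anew, which left more genes to test. Its lost calls and its counts of genes therefore do not compare like with like. The difference between genotypes of the dox effect was added after values had been seen. Single-gene values were followed through the alternatives where they exceeded their standard error, since smaller ones have no stated direction.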

Additional observations from a re-analysis of the deposited data

Results flagged for a closer look

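The change from day 0 to day 7 with dox was tested for a difference between the genotypes, as an interaction term of edgeR's fit. None of the 10 members passed. Of the pathway, formative and naive lists set beside them 5 genes did, each with a less negative or a higher value in Spen-/- cells. Those lists held 16 Nodal, 12 FGF/ERK, 12 Wnt/TCF, 11 formative and 12 naive genes tested. Of all genes tested, 2.01% passed. The naive genes Zfp42, Tcl1 and Nr0b1 differed by 3.68 ± 0.29 (log2, adjusted p = 0.000225), 5.61 ± 0.52 (adjusted p = 0.000381) and 4.32 ± 0.91 (adjusted p = 0.0315). The ligand gene Fgf4 differed by 6.30 ± 0.86 (adjusted p = 0.00331), and the formative gene Utf1 by 2.62 ± 0.36 (adjusted p = 0.00333). Among the marker lists, the ESC genes Tdh and Dppa4 also passed in that direction, and the streak genes T and Gsc, which had no reads in Spen-/- cells at day 7, passed in the opposite one (adjusted p = 0.00303 and 0.0111).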

How the results depend on the processing

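The 18 values of members past the threshold kept their direction in all 201 alternatives run for them, and 37 of these missed the threshold, 25 of 84 with a library left out and 12 of 17 in a fit of the compared libraries alone, which has fewer samples. None missed it with DESeq2, with its size factors in edgeR, without a filter, with library sizes from autosomal genes or without the Spen-/- day 7 libraries. In the fit of compared libraries alone, 0 members were called at day 3 in Wt (2 in the fit of all libraries) and Spen-/- cells (2), at day 7 in Spen-/- cells (6), between genotypes at day 7 (1) and with dox in Wt cells (1). Without a filter, 1 member was called between genotypes at day 0 with dox (0), 2 at day 7 (1), 2 on average (1) and 2 in the difference of changes to day 7 (0), with Cer1 among them each time. DESeq2 called 2 at day 7 (1) and 2 on average (1), adding Cer1, 2 with dox in Wt cells (1), adding Nodal, 1 with dox in Spen-/- cells (0), Fgf5, and 1 in the difference to day 7 (0), Lef1. The causes were not tested. Over all genes, DESeq2 and edgeR without a filter called more genes than the filtered edgeR fit in every comparison: 1246 and 949 against 251 at day 3 in Wt cells, 1203 and 916 against 223 in Spen-/- cells, 2034 and 1418 against 829 at day 7 in Wt cells, 3364 and 2748 against 1512 in Spen-/- cells, 3006 and 2521 against 1291 between genotypes at day 7, 2461 and 2397 against 891 on average, 559 and 385 against 15 between genotypes with dox at day 0, 341 and 290 against 27 with dox in Wt cells, 414 and 252 against 13 in Spen-/- cells, and 1266 and 1002 against 364 in the difference to day 7. The fit of compared libraries alone called 0 in each of these but day 7 in Wt cells (1600) and the difference to day 7 (55), and was not run on average. Without the Spen-/- day 7 libraries the counts were 407 at day 3 in Wt and 397 in Spen-/- cells, 23 between genotypes with dox at day 0, and 44 in Wt and 42 in Spen-/- cells with dox, and the replicate block gave 47 and 8 with dox in Wt and Spen-/- cells. With 1 library left out, the number called was 0 to 2 at day 3 in Wt and in Spen-/- cells, 2 to 4 at day 7 in Wt, 5 to 6 in Spen-/- cells, 1 to 2 between genotypes at day 7 and on average, 0 to 1 with dox in Wt cells and 0 to 1 in the difference to day 7. Values that changed sign, none past the threshold, are given as their range over the libraries left out. Without Wt day 0 replicate 1 these were Lefty1 at day 3 in Wt cells (-0.92 to 0.23), and Lefty2 between genotypes at day 0 (-0.75 to 0.050), with dox in Wt cells (-0.61 to 0.19) and in the difference of dox effects (-0.042 to 0.75). Without Wt day 0 dox replicate 1 they were Cer1 between genotypes (-11.14 to 2.42), with dox in Wt cells (-4.25 to 11.12) and in the difference of dox effects (-13.09 to 2.28), and without Wt day 7 replicate 1 Tdgf1 between genotypes (-0.016 to 0.93). The replicate numbers were checked for pairing by correlating replicate differences between conditions over 13214 genes. The 28 correlations ran from -0.124 to 0.254 with a median of 0.0218 and 5 above 0.1. They do not settle whether some libraries of the same replicate number share an origin. With the replicate number as a block, 2 members were called at day 3 in Wt cells and 0 at day 0 between genotypes, as without it, and no member's call changed.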
